A study of Mus musculus with 8 samples.

Results

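Tight junctions are the belts of sealing contacts near the apex of epithelial cells, and 36 genes of this structure are described here, among 55536 genes counted in MIN6 cells with and without forced expression of Klf4. The members were taken by name: all claudins with a plain number (23 genes), the zonula occludens scaffolds, among them Tjp1 and Tjp3, the MARVEL-domain genes Marveld1 to Marveld3 and Ocln, the immunoglobulin-like adhesion genes F11r, Jam2, Jam3 and Cxadr, and the plaque genes Cgn and Cgnl1. MIN6 is an insulin-producing β-cell line from an insulinoma of a transgenic mouse whose insulin promoter drives a viral large T antigen, and the labels give its genotype as WT. Both groups had 4 biological replicates, all harvested after 48 h of transfection with Lipofectamine 3000. The control group received the pcDNA 3 empty vector and the other group pGloMyc-Klf4, so that the plasmid backbone may have changed together with Klf4. Replicates 1 and 2 of either group were labelled as batch 1, and replicates 3 and 4 as batch 2. The protocol text mentions isolated islets, but all 8 samples are labelled as MIN6. RNA came from whole transfected cultures, in which more cells expressing a gene and more RNA per cell cannot be told apart.

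Claudins are small proteins with 4 membrane spans that polymerise into the strands of the junction. Some of them seal the space between cells and others form channels for ions or water. Occludin and its MARVEL-domain relatives lie in the same strands, JAM proteins and CAR (encoded by Cxadr) are adhesion molecules beside them, and the ZO proteins (such as those encoded by Tjp1 and Tjp3) and cingulins tie the strands to actin. Islet endocrine cells are joined by tight junctions too, while Klf4 is known from barrier epithelia such as the epidermis, where it is needed for a tight skin barrier.

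Libraries held 45417853 to 52731176 counts. Klf4 was at 40.1 ± 3.11 CPM (counts divided by each library's TMM-adjusted size) in control and 5040 ± 567.2 CPM with the Klf4 plasmid (SD, n = 4; exact permutation p = 0.0286, two-sided, the smallest that 4 against 4 allows), so no library went against its label. Reads of the plasmid and of the cells' own Klf4 gene could not be separated. Its effect differed between batches (edgeR interaction test, adjusted p = 0.0057). A Klf4-transfected library held counts for 26414 to 27216 genes and a control library for 24509 to 25446. The summed level of 10 β-cell markers ran from 31580 to 39620 CPM in control and from 29650 to 39700 CPM in Klf4-transfected libraries (exact permutation p = 0.571, which takes no account of batch). With batch in the edgeR fit, 5 of the 10 were called lower and 0 higher, and 7 of the 10 differed between batches. Those called lower were Slc30a8, Mafa, G6pc2, Pdx1 and Iapp, at log2 fold changes of -0.22 to -0.07. Of all genes tested in that fit, 21.1% were called higher and 15.5% lower, and 25.1% differed between batches. Markers of cell types that use other claudins were also summed. Of 8 endothelial markers, Kdr, Emcn, Vwf and Erg averaged under 3 counts a library, and the sum was 4.15 to 4.48 CPM in control and 6.07 to 6.65 CPM in Klf4-transfected libraries (exact permutation p = 0.0286), with calls for Cdh5 and Tie1. Of 6 fibroblast markers, Lum was at 0 in all libraries, and the sum was 2.61 to 3.85 CPM in control and 20.9 to 27.4 CPM with Klf4 (exact permutation p = 0.0286), most of it Dcn. The 6 ductal markers summed to 55.0 to 85.7 CPM and 71.8 to 108.3 CPM (exact permutation p = 0.171, without batch). With batch in the edgeR fit, 3 of the 4 ductal markers tested were called higher, Krt19 with a log2 fold change of 3.76, Muc1 with 0.53 and Krt7 with 0.33, and 3 of the 4 differed between batches. The 8 acinar markers summed to 1.40 to 3.92 CPM and 1.62 to 3.11 CPM (p = 0.686 by the same permutation test), with Amy2a5 and Prss1 at 0, and the 6 immune markers to 6.27 to 6.69 CPM and 6.32 to 7.57 CPM (p = 0.143 by the same permutation test). The part of these markers in the results on junction genes was not tested. Cldn5, the claudin that defines endothelium, had 0 counts in 7 libraries and 1 count in Klf4-transfected replicate 2.

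Of the 36 members, 23 had enough counts for a test, and 13 did not. With the quasi-likelihood test of edgeR and an adjusted p below 0.05, 12 were higher and 1 was lower in Klf4-transfected cells, and 10 were not called. Of all 18266 genes tested, 21.1% were called higher and 15.5% lower. With scaling factors taken from abundant genes only, an alternative added after the data had been seen, the split of all calls moved from 57.7% to 72.8% higher, and the members kept the same counts of 12 and 1. Of the 12 higher members, 3 (Cldn4, Cldn10 and Cldn18) passed the count filter only through the Klf4-transfected libraries. For Cldn9 the control libraries alone would not have sufficed, with 9 counts in control replicate 2 against the filter's minimum of 10. A share of the tested members is therefore not used as evidence. Among the 20 members with a mean of at least 10 counts in control libraries, 9 were higher, 1 was lower and 10 were not called. Their median log2 fold change was 0.15, against -0.01 over all genes tested, which were not held to that control count. The called rises of 2-fold or more were in genes below 2 CPM in control, and the largest rise of a member above 10 CPM in control was 1.29-fold (Cgn).

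Levels per exon length, in CPM per kilobase, allow members to be compared with each other. In control cells the order was led by F11r, which encodes the adhesion molecule JAM-A (24.1 ± 1.32; SD, n = 4), Tjp1 (22.5 ± 0.363), Cgn (12.7 ± 1.22), Marveld3 (8.50 ± 0.204) and Cldn12 (7.94 ± 0.455). Among the claudins Cldn12 stood first, and Cldn1 was next at 1.38 ± 0.132. Cldn14, Cldn15, Cldn11, Cldn2, Cldn9 and Cldn6 lay between 0.129 and 0.804, and no other claudin reached 0.02. In Klf4-transfected cells the first 4 places were unchanged, and Cldn4 moved from the 22nd place of 36 (0.0169 ± 0.0146) to the 9th (2.86 ± 0.108), above Cldn1 (2.08 ± 0.145).

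**Figure D1:**
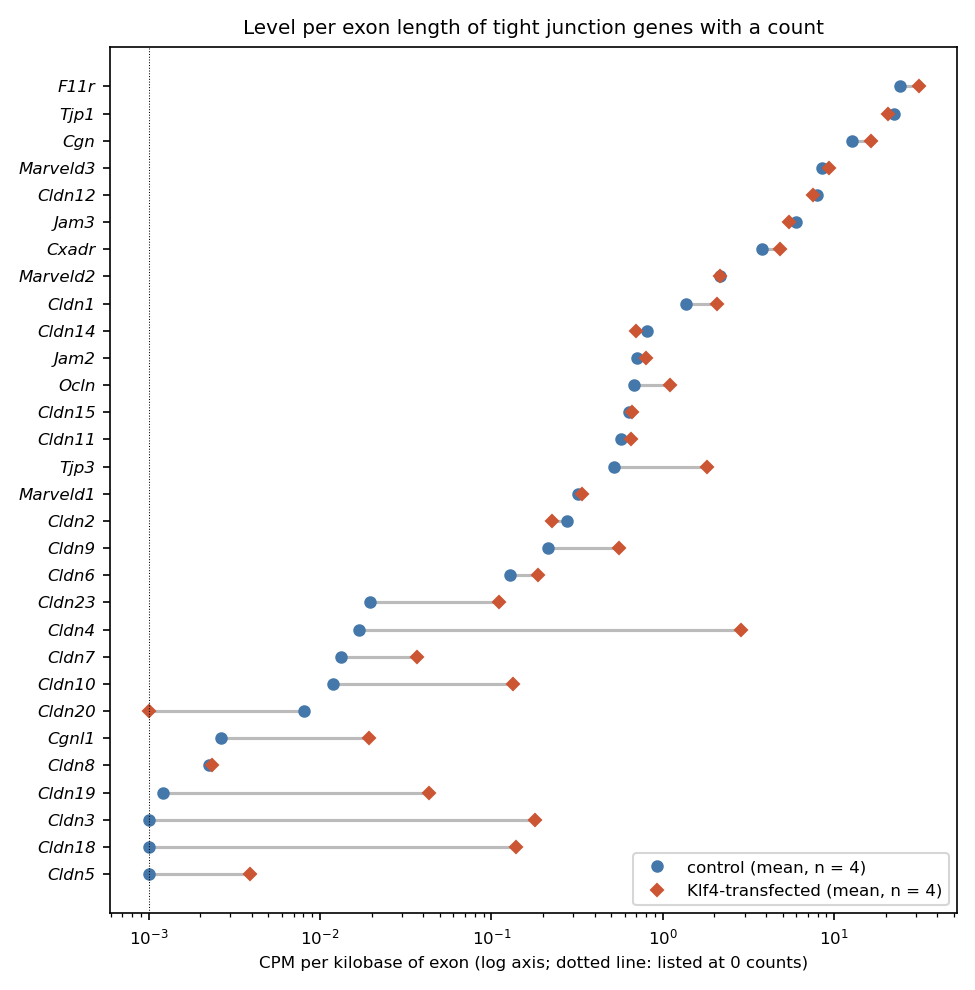
Mean level of members with at least 1 count, in CPM per kilobase of exon on a log axis, in control (circles) and Klf4-transfected cells (diamonds), n = 4 each, ordered by the control level. The members at the top sit close to their control values, while Cldn4 runs from 0.0169 to 2.86; symbols on the dotted line are genes listed at 0 counts.

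The start regions of some members are shown because the protein supplied by the plasmid, a zinc-finger factor, binds DNA. The sequences are the 250 bases before a RefSeq transcript start in GRCm38.p6, 5′ to 3′ on the gene's strand. Matches to the Krüppel-like factor letters GGGNGTGG on either strand (CCACNCCC on the other) are in capitals. They stand for the claudin that gained most in level per kilobase (Cldn4), its neighbour Cldn3, Cldn18, Tjp3, the most abundant riser F11r, and Tjp1, the member that fell, whose RefSeq start lies within the longer gene model used for counting coordinates.

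Cldn4, chr5:134946935-134947184, minus strand: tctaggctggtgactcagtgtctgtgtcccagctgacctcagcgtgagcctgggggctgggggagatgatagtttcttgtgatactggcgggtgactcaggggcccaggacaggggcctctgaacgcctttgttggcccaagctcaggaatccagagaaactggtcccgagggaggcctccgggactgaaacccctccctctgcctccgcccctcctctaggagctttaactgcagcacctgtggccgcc
Cldn3, chr5:134985964-134986213, plus strand: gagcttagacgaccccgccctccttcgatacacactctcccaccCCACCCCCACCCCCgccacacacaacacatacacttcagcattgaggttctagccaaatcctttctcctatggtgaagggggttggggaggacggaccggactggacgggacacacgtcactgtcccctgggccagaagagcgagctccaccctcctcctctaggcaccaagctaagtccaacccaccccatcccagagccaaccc
Cldn18, chr9:99717268-99717517, minus strand: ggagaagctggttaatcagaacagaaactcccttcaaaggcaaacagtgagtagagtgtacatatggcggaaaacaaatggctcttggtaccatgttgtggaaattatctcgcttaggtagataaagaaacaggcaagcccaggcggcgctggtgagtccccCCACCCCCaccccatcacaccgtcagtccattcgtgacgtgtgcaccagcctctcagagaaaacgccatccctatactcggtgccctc
Tjp3, chr10:81291582-81291831, minus strand: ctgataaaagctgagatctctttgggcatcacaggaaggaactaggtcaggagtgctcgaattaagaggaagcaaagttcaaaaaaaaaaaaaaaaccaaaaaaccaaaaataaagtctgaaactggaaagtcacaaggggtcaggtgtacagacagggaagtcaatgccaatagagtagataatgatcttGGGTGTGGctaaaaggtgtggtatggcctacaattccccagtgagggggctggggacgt
F11r, chr1:171437311-171437560, plus strand: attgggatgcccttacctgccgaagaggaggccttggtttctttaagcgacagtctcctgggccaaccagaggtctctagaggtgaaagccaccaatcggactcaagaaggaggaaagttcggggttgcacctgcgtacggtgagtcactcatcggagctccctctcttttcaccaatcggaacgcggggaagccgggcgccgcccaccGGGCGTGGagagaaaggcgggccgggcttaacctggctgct
Tjp1, chr7:65371245-65371494, minus strand: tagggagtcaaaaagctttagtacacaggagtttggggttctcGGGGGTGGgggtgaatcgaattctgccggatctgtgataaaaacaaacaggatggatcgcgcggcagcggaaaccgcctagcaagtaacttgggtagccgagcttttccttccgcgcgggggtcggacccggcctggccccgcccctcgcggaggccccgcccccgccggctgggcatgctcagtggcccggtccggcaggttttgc

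No match lay in the window of Cldn4. Cldn3 had 2 overlapping matches, the farther one starting 206 bases before its start. Cldn18 had 1 match 88 bases, Tjp3 59 bases, F11r 41 bases and Tjp1 207 bases before the start shown, each counted to the match's first base. RefSeq also gives another start for Cldn18 and another for Tjp3, and no match lay in the windows of those starts. The table of RefSeq starts held 27 of the 36 members, and 9 of those had a match in a window of 300 bases (250 before to 50 after the start), counting any of their starts. Of the 8 called higher with a window, 4 had a match (Cldn18, F11r, Ocln and Tjp3), as had 5 of the other 19. By window, 11 of the 38 windows of members (28.9%) and 17.6% of all 32851 windows of that length held a match, and the shorter letters CACCC, which as GGGTG lie within GGGNGTGG where N is T or G, were held by 57.5% of all windows and by 22 of the 38 of members (57.9%). Both windows of Cldn19 hold the same match, as do both windows of Marveld2, so the count of member windows includes these matches more than once. No share by gene over all genes was computed. All of these are matches of letters and not sites of binding.

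Claudins gave the largest changes. Cldn4, a claudin of many simple epithelia (ENSMUSG00000047501, chromosome 5, 134945119 to 134946934, minus strand, GRCm38), was at 0, 0.0616, 0.0406 and 0.0207 CPM in control replicates 1 to 4, which is 0, 3, 2 and 1 counts. In Klf4-transfected replicates 1 to 4 it was at 5.42, 4.97, 5.27 and 5.10 CPM, or 280, 225, 277 and 269 counts. The groups were far apart, and the Klf4-transfected libraries lay close together. The ratio of the summed counts, scaled to library size, was 167.4 (95% interval 76.7 to 457.2 from counting error only, exact binomial), and the log2 fold change was 7.27 ± 0.27 SE (adjusted p = 5.89e-16 in edgeR).

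Cldn18, the claudin of stomach and lung epithelium (ENSMUSG00000032473, chromosome 9, 99689461 to 99717267, minus strand), had 0 counts in every control library, against 33, 31, 23 and 38 counts with Klf4. That is 0.620 ± 0.127 CPM (SD, n = 4), at least 9.99-fold higher than a floor of 3 counts per control library (adjusted p = 1.13e-07 in edgeR). Cldn10, whose isoforms form ion-selective channels (ENSMUSG00000022132, chromosome 14, 118787908 to 118875489, plus strand), had a control count of 1, 1, 3 and 1. It had 15, 15, 12 and 28 counts in Klf4-transfected libraries, a count ratio of 11.2 (95% interval 4.87 to 31.4, counting error only) and a log2 fold change of 3.38 ± 0.55 SE (adjusted p = 3.58e-05 in edgeR). For both genes the lowest library with Klf4 was above the highest control, on few counts.

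Cldn9, a claudin known from the inner ear (ENSMUSG00000066720, chromosome 17, 23682584 to 23684026, minus strand), was at 0.361, 0.185, 0.446 and 0.249 CPM in control and at 0.929, 0.906, 0.665 and 0.721 CPM in Klf4-transfected libraries. The groups did not overlap, and the log2 fold change was 1.36 ± 0.30 SE (adjusted p = 0.00104 in edgeR). Within batch 2 alone it was 1.00 and no longer passed (edgeR adjusted p = 0.083). Cldn1, which is needed for the epidermal water barrier (ENSMUSG00000022512, chromosome 16, 26356642 to 26371841, minus strand), was at 6.69, 5.79, 6.82 and 7.33 CPM in control and at 10.4, 10.9, 9.28 and 9.77 CPM in Klf4-transfected libraries, again without overlap (log2 fold change 0.60 ± 0.08 SE, adjusted p = 4.12e-06 in edgeR).

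The claudin that was most abundant in control cells, Cldn12 (chromosome 5, 5489537 to 5514958, minus strand), was not called. It had 31.97, 31.8, 35.0 and 35.4 CPM in control and 31.5, 30.6, 33.3 and 31.2 CPM in Klf4-transfected libraries, which overlap (log2 fold change -0.08 ± 0.04 SE, adjusted p = 0.137 in edgeR). The other tested claudins that were not called were Cldn2, a channel for sodium and water (log2 fold change -0.25, 95% interval -0.80 to 0.30), Cldn15, an intestinal sodium channel (0.06, -0.34 to 0.47), Cldn14 of the inner ear and kidney (-0.22, -0.58 to 0.14), Cldn11 of myelin (0.18, -0.23 to 0.58) and Cldn6, an embryonic claudin (0.50, -0.24 to 1.24). These intervals leave room for changes in either direction. By role, 1 of the 5 channel-forming claudins listed was higher (Cldn10), 2 were not called and 2 not tested. Of the 7 barrier-forming claudins 2 were higher (Cldn1 and Cldn18), 2 were not called and 3 not tested. Over all genes tested, 21.1% were called higher. Cldn10 and Cldn18 passed the filter only through the Klf4-transfected libraries, and the genes are too few to compare the roles.

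Of the 12 claudins below the count filter, 3 still had no overlap between the groups, with Klf4 above control. The share of such genes among all genes below the filter was not computed, so this count is a description only. Klf4-transfected libraries also held counts for more genes (26414 to 27216, against 24509 to 25446 in control). Cldn3, a sealing claudin of gut and other epithelia, had 0 counts in all control libraries and 4, 10, 20 and 12 counts in Klf4-transfected libraries, at least 3.65-fold above the floor of 3 counts per control library. It shares exonic bases with Wbscr25 on the other strand, which had 33 counts in the control group and 66 with Klf4 (log2 fold change 0.94, adjusted p = 0.0932 in edgeR), and without a known strand setting their reads cannot be told apart there. Cldn19, a partner of Cldn16 in the kidney, had 0, 0, 0 and 1 against 6, 5, 10 and 17 counts, a count ratio of 36.3 with a 95% interval of 6.14 to 1472. Cldn23 had 1, 5, 1 and 0 against 13, 7, 7 and 15 counts, a ratio of 5.74 (2.55 to 15.1). Without the filter these 3 genes and Cgnl1 were called higher by edgeR, and the count of higher members was 15. Cldn7 had 1, 4, 0 and 0 against 8, 0, 2 and 5 counts, which overlap, and Cldn5, Cldn8 and Cldn20 never passed 1 count in a library. Cldn13, Cldn16, Cldn17, Cldn22 and Cldn24 had 0 counts throughout, so that at this depth they were not detectable.

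Claudin genes often lie in pairs. On chromosome 5, Cldn13 and Cldn4 are 29592 bases apart and Cldn4 and Cldn3 a further 39279 bases. Cldn4 and Cldn3 were both near 0 in control and counted in all Klf4-transfected libraries, while Cldn13 had no counts. Cldn6 and Cldn9, with 137 bases between their ends on chromosome 17, have opposite strands, and of this pair Cldn9 was called and Cldn6 was not. Cldn1 rose, and Cldn16, 91293 bases away on chromosome 16, had no counts. Ocln and Marveld2 are 43238 bases apart on chromosome 13, where Ocln rose and Marveld2 was not called.

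These changes altered the make-up of the claudins. The summed claudin level per kilobase was 11.7, 11.8, 12.5 and 12.1 in control and 16.4, 15.7, 16.01 and 16.1 in Klf4-transfected replicates 1 to 4, with no overlap. Cldn12 gave 66.0% ± 2.31 of it in control and 46.6% ± 1.68 in Klf4-transfected cells (SD, n = 4). The share of Cldn4 was 0.140% ± 0.123 and 17.8% ± 0.452, and that of Cldn1 11.4% ± 1.00 and 13.0% ± 1.01. Cldn4 thus took the place next after Cldn12, ahead of Cldn1, in all 4 Klf4-transfected libraries. No test is given for these sums, since they are made from the members' own changes.

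**Figure D2:**
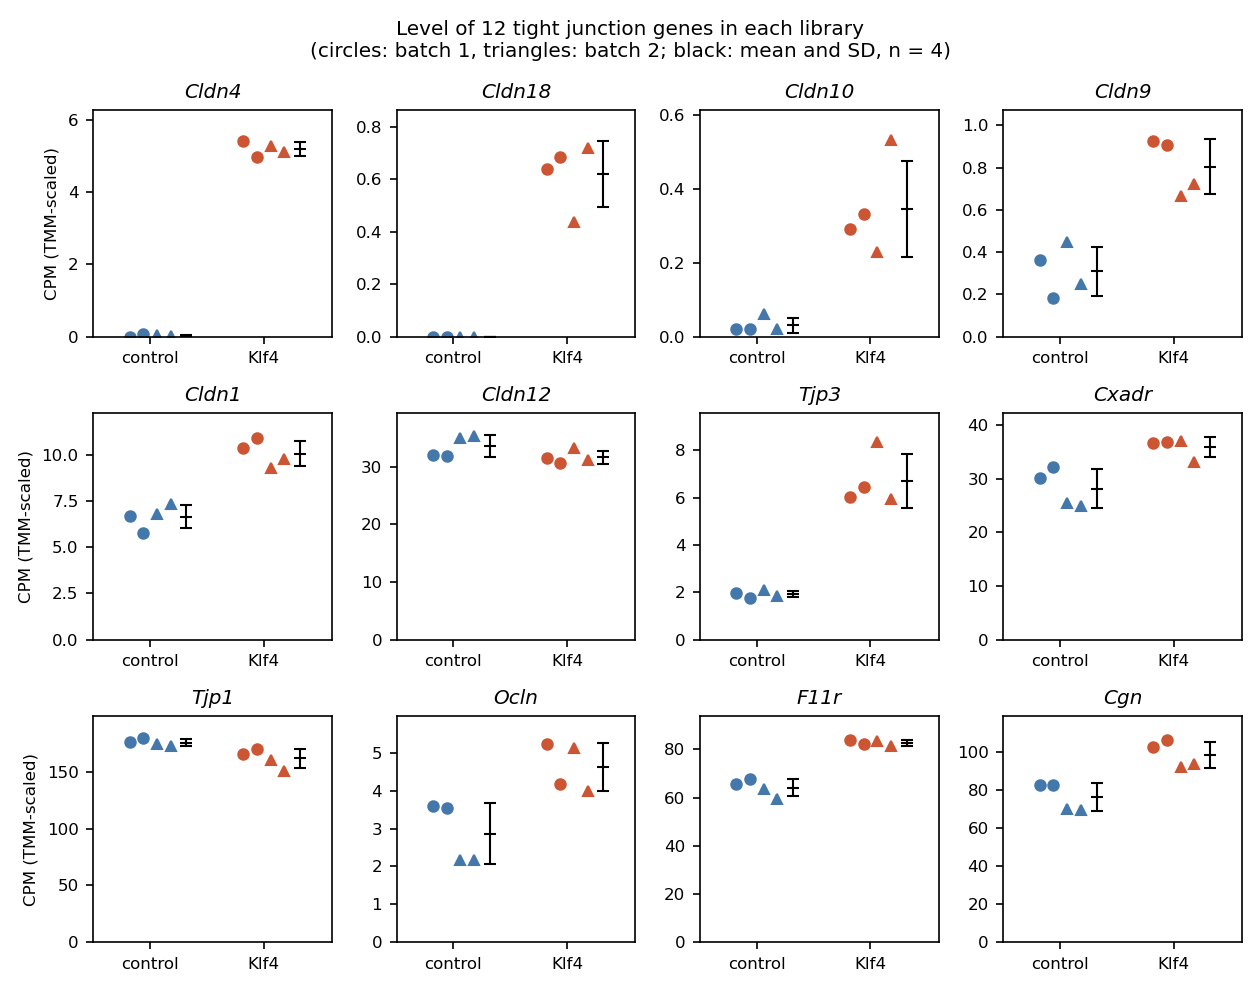
Level of 12 members in CPM in each library, with axes from 0; circles are batch 1, triangles batch 2, and the black bar is the mean with its SD (n = 4). Cldn4 goes from at most 0.0616 CPM in control to at least 4.97 CPM in Klf4-transfected libraries, whereas the groups of Cldn12 overlap and Tjp1 falls from 175.5 to 161.7 CPM.

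Of the 4 MARVEL-domain genes, 2 were called higher. Ocln, the gene of occludin (ENSMUSG00000021638, chromosome 13, 100496507 to 100552718, minus strand), was at 3.59, 3.53, 2.17 and 2.17 CPM in control and at 5.22, 4.17, 5.12 and 4.00 CPM in Klf4-transfected libraries. All Klf4-transfected libraries lay above all control libraries, and the control values fell into pairs by batch. The log2 fold change was 0.72 ± 0.14 SE (adjusted p = 0.000206 in edgeR), with 0.40 in batch 1 (edgeR adjusted p = 0.0515) and 1.08 in batch 2. That difference between batches did not pass the interaction test (edgeR adjusted p = 0.238, 0.00758 before adjustment). Marveld3 was at 28.9, 27.4, 27.9 and 27.5 CPM in control and at 31.8, 31.9, 28.3 and 29.9 CPM in Klf4-transfected libraries, which overlap (log2 fold change 0.12 ± 0.04 SE, adjusted p = 0.0322 in edgeR). This call was lost with any 1 library left out except Klf4-transfected replicate 3 (adjusted p = 0.0572 to 0.201 in edgeR over those 7 fits, and 0.0267 without that replicate), and with no batch term (0.11). Marveld2, the gene of tricellulin at contacts of 3 cells, had a log2 fold change of -0.02 (95% interval -0.18 to 0.15), and Marveld1 one of 0.07 (-0.27 to 0.41), neither called.

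Among the immunoglobulin-like genes, F11r (ENSMUSG00000038235, chromosome 1, 171437535 to 171464603, plus strand) was at 65.7, 67.7, 63.7 and 59.4 CPM in control and at 84.1, 82.3, 83.3 and 81.4 CPM in Klf4-transfected libraries. The groups were apart by more than either group's range (log2 fold change 0.37 ± 0.03 SE, adjusted p = 1.02e-08 in edgeR). Cxadr, the gene of the coxsackievirus and adenovirus receptor CAR (ENSMUSG00000022865, chromosome 16, 78301489 to 78359774, plus strand), was at 30.1, 32.2, 25.4 and 24.9 CPM in control and at 36.6, 36.8, 37.0 and 33.15 CPM in Klf4-transfected libraries, without overlap (log2 fold change 0.36 ± 0.05 SE, adjusted p = 8.57e-06 in edgeR). Its exons overlap those of Btg3 on the other strand, and Btg3 itself was lower (log2 fold change -0.15, edgeR adjusted p = 0.00176). Jam2 (log2 fold change 0.17, 95% interval -0.01 to 0.36) and Jam3 (-0.14, -0.25 to -0.03) were not called (edgeR adjusted p = 0.172 and 0.0577). Jam3 passed when control replicate 2, Klf4-transfected replicate 1 or Klf4-transfected replicate 3 was left out (edgeR adjusted p = 0.0445, 0.0242 and 0.0187). It shares exonic bases with the antisense Gm48796, which fell by 0.47 on the log2 scale (edgeR adjusted p = 0.00227), and counts of such pairs cannot be told apart where the strand setting is not given.

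The plaque genes moved in both directions. Tjp3, the gene of ZO-3, which is largely confined to epithelia (ENSMUSG00000034917, chromosome 10, 81273207 to 81291581, minus strand), was at 1.98, 1.77, 2.09 and 1.84 CPM in control and at 6.02, 6.43, 8.37 and 5.93 CPM in Klf4-transfected libraries. The lowest Klf4-transfected library was above the highest control library by a wide margin, and the log2 fold change was 1.80 ± 0.12 SE (adjusted p = 3.79e-11 in edgeR). Apba3, which overlaps it on the other strand, was not called (log2 fold change -0.02, edgeR adjusted p = 0.858). Cgn, the gene of cingulin (ENSMUSG00000068876, chromosome 3, 94760069 to 94786492, minus strand), was at 82.9, 82.6, 70.2 and 69.8 CPM in control and at 102.7, 106.3, 92.1 and 93.8 CPM in Klf4-transfected libraries, without overlap although batch 2 was lower in both groups (log2 fold change 0.37 ± 0.03 SE, adjusted p = 1.28e-09 in edgeR). Its relative Cgnl1 was below the filter, with 2, 1, 1 and 0 against 11, 3, 10 and 7 counts, a ratio of 7.41 (95% interval 2.62 to 28.9, counting error only).

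Tjp1, the gene of the main scaffold ZO-1 (ENSMUSG00000030516, chromosome 7, 65296165 to 65527781, minus strand), was the member called lower. It was at 176.1, 179.2, 174.0 and 172.7 CPM in control and at 165.5, 170.1, 160.5 and 150.7 CPM in Klf4-transfected libraries. All 4 Klf4-transfected libraries lay below all control libraries, and the log2 fold change was -0.12 ± 0.03 SE (adjusted p = 0.00263 in edgeR). This call was lost with no batch term (edgeR adjusted p = 0.0592) and within batch 1 alone (log2 fold change -0.09, edgeR adjusted p = 0.0937).

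**Figure D3:**
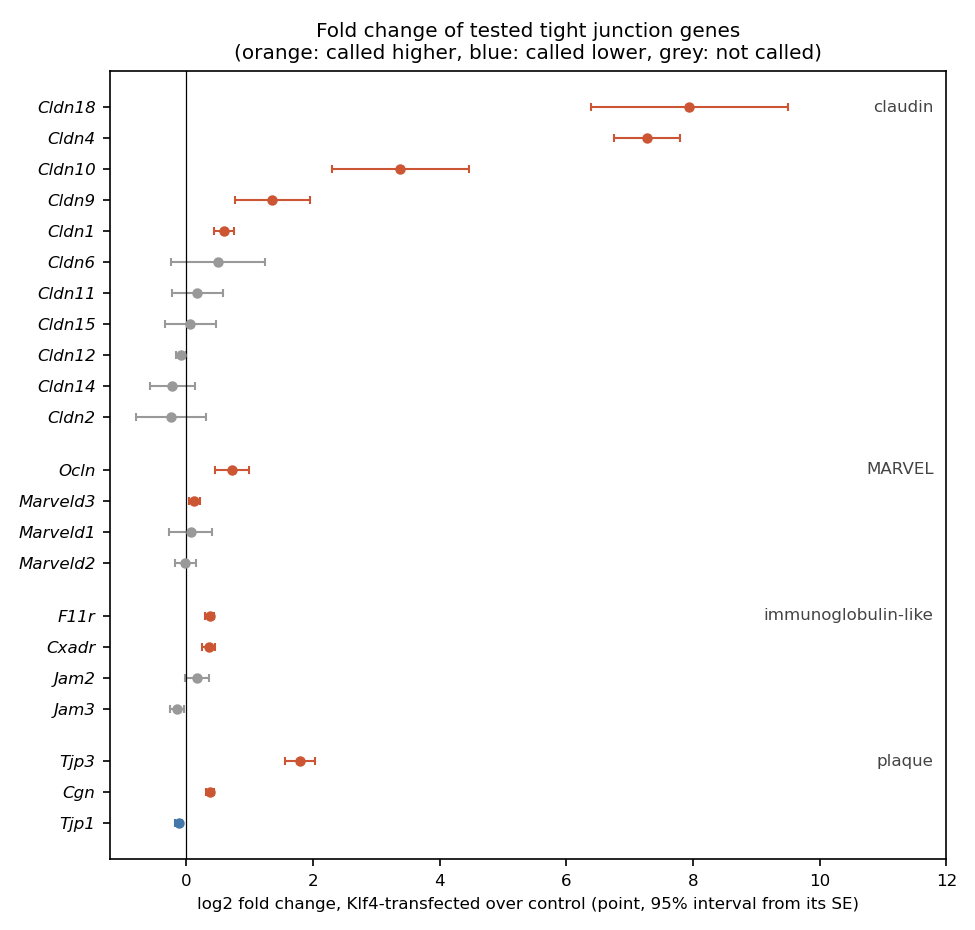
Log2 fold change of tested members with its 95% interval, grouped by role; orange is called higher, blue called lower and grey not called at an adjusted p under 0.05. Cldn18, Cldn4, Cldn10, Tjp3 and Cldn9 lie above 1, and the point of Cldn18 rests on control libraries with 0 counts, so that its place on the axis depends on the small prior count of the fit.

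A log2 fold change of at least 1 was thus called for 5 members (Cldn4, Cldn18, Cldn10, Tjp3 and Cldn9). Among the 20 members with at least 10 counts on average in control, 2 were among these (Tjp3 and Cldn9). Over all genes tested the share was 8.5%. That set was not held to a control count, so the figures are not like for like. Cldn9 would also not have passed the filter through its control libraries alone. No member was called lower by that much, as were 0.186% of all genes. Libraries of the groups did not overlap for 8 of those 20 members in the higher and 1 in the lower direction. Over all genes tested, again without a rule on control counts, 17.2% and 8.93% did not overlap. Cldn4, Cldn10 and Cldn18, which passed the filter only through the Klf4-transfected libraries, did not overlap either. Fitted within each batch, 10 members were called higher and 0 lower in batch 1, and 11 higher and Tjp1 lower in batch 2, where Cldn3 passed the filter and was called. Of the 23 tested members, 19 had the same sign in both batches, as had 13403 of all 17995 genes fitted in both. The 4 members with opposite signs, Cldn2, Cldn15, Marveld1 and Marveld2, were not called in any of the 3 fits. No member passed the interaction test of a difference between batches in edgeR (3 had an unadjusted p under 0.05: Cldn1, Cxadr and Ocln), nor in the DESeq2 Wald test, while 0.766% of all genes passed in edgeR. The level itself differed between batches, by the batch term of the same fit, for 2 of the 23 members, both lower in batch 2, against 25.1% of all genes tested. Cgn had a log2 difference of -0.20 (batch 2 against batch 1, adjusted p = 4e-05 in edgeR) and Cxadr one of -0.18 (adjusted p = 0.0137 in edgeR).

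**Figure D4:**
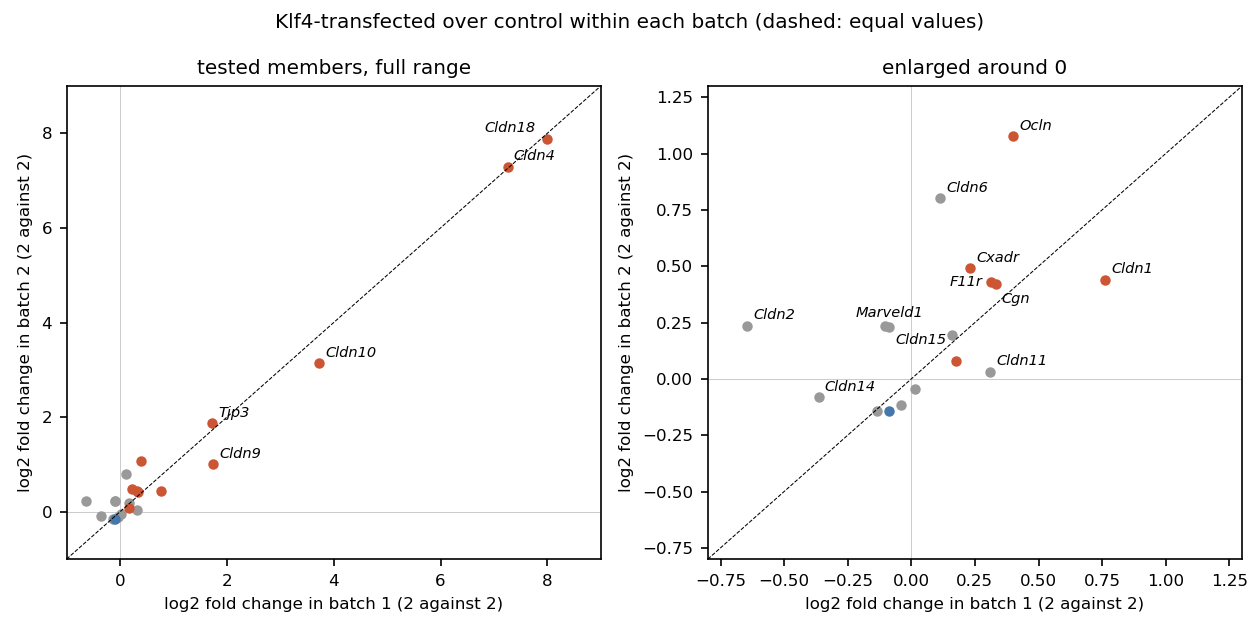
Log2 fold change within batch 1 (x) and within batch 2 (y), each 2 against 2 libraries, for tested members, with the range around 0 enlarged at the right. Cldn4 (7.26 and 7.30) and Tjp3 (1.73 and 1.87) lie near the line of equal values, and Ocln (0.40 and 1.08) and Cldn1 (0.76 and 0.44) lie off it.

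Lists of 84 other genes that build, polarise or regulate epithelial junctions were read beside the members. Of these, 80 were tested, 46 were called higher and 4 lower, with a median log2 fold change of 0.18 against -0.01 over all genes tested, of which 21.1% were higher and 15.5% lower. These counts are a description, without a test of the lists. Genes such as Clmp, with 0 counts in all control libraries, passed the count filter only through the Klf4-transfected libraries. The shares of the lists are therefore not used as evidence.

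Of the 20 genes of the polarity complexes, 8 were higher and 2 lower (median 0.04). Crb2, a Crumbs membrane protein, averaged 0.580 ± 0.184 CPM in control and 3.74 ± 0.370 CPM with Klf4, each with its SD over 4 libraries (log2 fold change 2.68 ± 0.19 SE, adjusted p = 6.11e-11 in edgeR). Crb3, the Crumbs protein of most epithelia, had a log2 fold change of 0.73 and the adaptor Lin7b 0.55, both called higher. That of Crb3 was 0.47 in batch 1 and 1.03 in batch 2. This difference did not pass the interaction test (edgeR adjusted p = 0.0863, 0.00095 before adjustment). Called lower were the adaptor Lin7a (-0.31, with overlapping groups) and Prkci, the kinase of the PAR complex (-0.18). At tricellular contacts, the angulin genes Ildr2 (0.52) and Lsr (0.35) were called higher, and Ildr1 was not called (0.37, edgeR adjusted p = 0.162). The groups of Lsr overlapped, at 54.2 to 74.2 CPM in control and 67.0 to 93.6 CPM with Klf4. Exons of Crb2 and Crb3 overlap those of Dennd1a and Dennd1c on the other strand, and Lin7b, Lsr and Ildr2 have such partners too. Some named genes of other lists, such as Arhgef11, Nectin2 and Clmp, have them as well. Without a known strand setting, reads of such pairs cannot be told apart there.

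Of the 21 plaque and scaffold genes, 11 were higher and 2 lower (median 0.15). The largest log2 fold changes were those of Micall2, which with Rab13 brings occludin to the membrane (1.25 ± 0.13 SE, adjusted p = 5.39e-08 in edgeR), the angiomotin gene Amot (0.62) and the actin regulator Vasp (0.44). Lower were the multi-PDZ scaffold Mpdz (-0.14) and Arhgef11 (-0.12), a guanine nucleotide exchange factor bound by ZO-1. Of the 9 other immunoglobulin-like and related adhesion genes, 8 were tested and 5 were higher (median 0.33). Among them were Nectin4 (0.88), Nectin2 (0.42) and Epcam (0.35, with overlapping groups). In the adherens junction list, which shares Afdn with the plaque list, 7 of 10 tested genes were higher and none lower (median 0.16). The changes were small, with Jup (0.34), Ctnnd1 (0.26) and Cdh1 (0.21) in front, and Cdh1 overlapped between the groups.

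Transcription factors known to act on junction genes gave 10 higher and 0 lower calls among 14 tested (median 0.47). The lowest log2 fold change of the list was that of Zeb1, another repressor (-0.09, adjusted p = 0.0936 in edgeR, unadjusted 0.0397). Ovol1, an epithelial zinc-finger factor, averaged 0.207 ± 0.123 CPM in control and 8.41 ± 1.41 CPM with Klf4, each with its SD over 4 libraries (log2 fold change 5.32 ± 0.20 SE, adjusted p = 1.56e-15 in edgeR). Grhl3, a grainyhead factor of barrier epithelia, had a log2 fold change of 1.88. Snai1, known as a repressor of occludin, claudin and E-cadherin genes, had one of 1.43 and Zeb2, a repressor of the same kind named here after its value was seen, one of 0.47, both called higher. Of the 6 membrane proteases and their inhibitors, 5 were tested and 4 were higher (median 0.69). St14, the gene of matriptase, averaged 0.212 ± 0.0429 CPM in control and 6.12 ± 0.768 CPM with Klf4, each with its SD over 4 libraries (log2 fold change 4.84 ± 0.18 SE, adjusted p = 1.1e-15 in edgeR), and its inhibitors Spint1 (0.69) and Spint2 (0.33) were called higher.

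**Figure D5:**
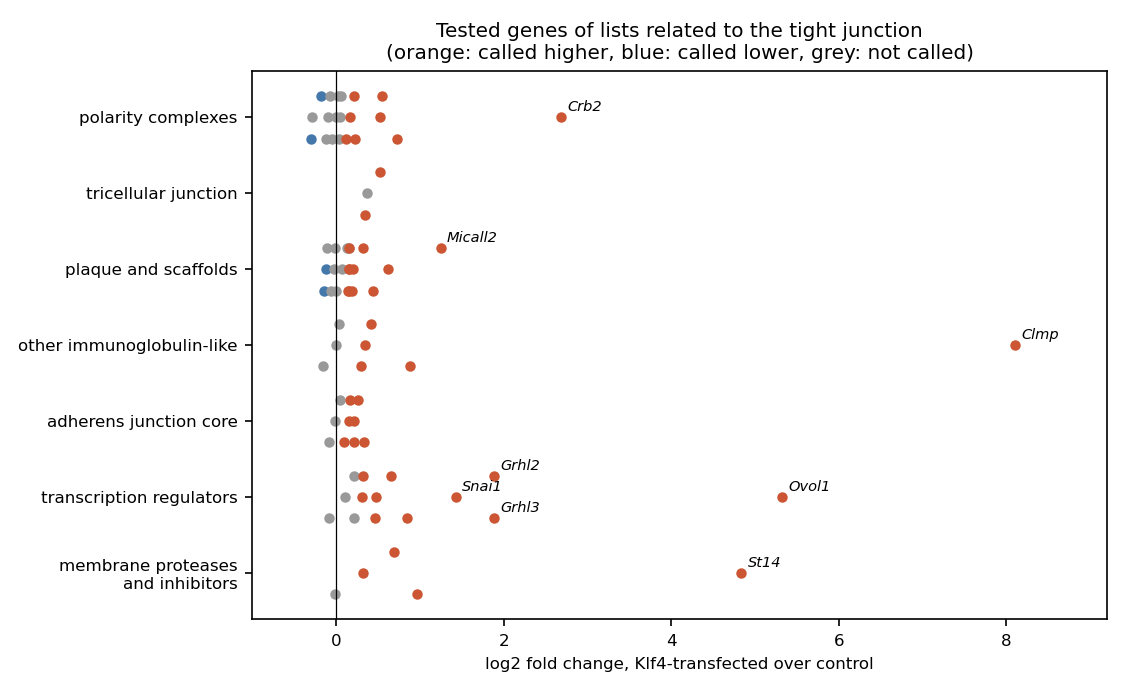
Log2 fold change of the tested genes of 7 lists around the tight junction, 1 point a gene, spread vertically only for legibility; orange is called higher, blue called lower and grey not called. Most points lie between -0.31 and 1, and Crb2, Micall2, Clmp, Ovol1, Grhl2, Grhl3, Snai1 and St14 stand to the right of them; Clmp had 0 control counts, so its place depends on the prior count of the fit.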

How the data were processed

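RNA of 8 MIN6 libraries was analysed from gene-level read counts as deposited by the authors, neither normalised nor pooled. The submitters' processing notes list FastQC, STAR, featureCounts, edgeR and the mm10 build, and the name of the deposited table mentions cutadapt. The strand setting and the annotation release are not given in the sources used here. All 55536 pairs of symbol and identifier matched GENCODE M21 (GRCm38), which gave coordinates and exon lengths, and promoters came from RefSeq (GRCm38.p6). Reads shared by near-identical claudins could be split by the authors' counting.

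Counts were fitted in edgeR 4.0.16 (R 4.3.3) with terms for batch and plasmid after filterByExpr (minimum count 10), which kept 18266 genes, with TMM factors. P-values of the quasi-likelihood test were adjusted over all genes tested (Benjamini-Hochberg), and an adjusted p under 0.05 made a call. The SE of a log2 fold change was taken from its F statistic, and 95% intervals from that SE with a normal quantile. These intervals are slightly narrower than the test allows. That of Cldn12 ran from -0.166 to -3.19e-05 although its unadjusted p in edgeR was 0.0631. Single values were compared with exact permutation tests over 70 relabellings. In simulated counts of this comparison (18000 genes), 58% of genes changed 1.25-fold and 88% of those changed 1.5-fold were recovered. The shares were 83.3% at 2-fold and 97.8% at 4-fold. Only 46 to 50 genes were changed at each fold. Beside the 29, 44, 40 and 45 recovered, 15 unchanged genes were called. The data had 6684 calls, so these rates need not hold there. No pair of libraries of 1 group agreed within counting noise, as a repeated deposit of the same library would (chi-square per degree of freedom 3.96 to 5.31 for pairs sharing a batch, 15.8 to 21.1 for the others).

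The members and lists were chosen with earlier results of these data known. Values in every library are given for called members at 1 or more in absolute log2 fold change, the 5 highest in control per kilobase, the members called lowest, Tjp1, Tjp3 and Ocln. The values of 1 other member are not reported here, though the counts of members include it. Values of Cldn1, Cxadr and the members below the filter were added. From each list up to 3 called genes per direction with at least 1 CPM are named. Replicate numbers come from the titles. Deviations of same-numbered libraries correlated at 0.491 to 0.645 in all 4 pairs, and at -0.0532 and 0.0872 once batch means were removed, so the numbers pair libraries by batch. Alternatives used DESeq2 1.42.0, limma 3.58.1, other filters and scalings, a replicate block, single batches and the omission of each library.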

Additional observations from a re-analysis of the deposited data

Results flagged for a closer look

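Single libraries standing apart within their group were looked for in 47 sets of 4 values, over the tested members and Klf4 and 3 were found, where chance gives about 2.35. Cldn10 was at 0.0609 CPM in control replicate 3, which is 3 counts, against 0.0205 to 0.0212 CPM (1 count each) in the other control libraries. Jam3 was at 18.7 CPM in control replicate 3, where the remaining controls had 19.3 to 19.4 CPM. Cxadr was at 33.15 CPM in Klf4-transfected replicate 4, where the remaining replicates had 36.6 to 37.0 CPM, and still above the highest control library at 32.2 CPM. The effect on Klf4 itself differed between batches, with an interaction term of 0.371 on the log2 scale (batch 2 against batch 1, edgeR adjusted p = 0.0057).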

How the results depend on the processing

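The 12 higher members stayed between 9 and 15 under every alternative, and between 11 and 12 with 1 library left out; 9 remained under the filter of 1 CPM in 4 libraries, which removes Cldn9, Cldn10 and Cldn18. When replicate numbers entered as a block, replacing batch, 12 members were higher and 1 lower, and no call changed. The count of lower members, 1, was 0 without a batch term and in batch 1 alone, 2 with DESeq2 size factors, and 1 to 2 with 1 library left out. Changes of sign concerned 4 uncalled members: Cldn2 was at 0.236 in batch 2 alone, and Cldn15 at -0.0884, Marveld1 at -0.103 and Marveld2 at 0.0161 in batch 1 alone. Marveld2 was at 0.0178 with factors from abundant genes. With 1 library left out, Cldn15 ran from -0.166 to 0.183, Marveld1 from -0.0457 to 0.119 and Marveld2 from -0.084 to 0.044. The cause was not tested. Over all genes, 6684 were called in the fit reported and 4116 without a batch term. In all fits made, the called members kept their direction. Members under about 10 counts a library are limited by depth, and their ratios by counting error.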

Other observations

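Among list genes below 1 CPM on average, Clmp, an adhesion gene of the same immunoglobulin family as Cxadr, was picked with its values already known, and had 0 counts in all control libraries and 140 in the 4 Klf4-transfected libraries together (0.690 ± 0.144 CPM; SD, n = 4; edgeR adjusted p = 4.2e-08). Grhl2, a grainyhead factor known to act on Cldn4 and Cdh1, was picked likewise, with 27 counts in the control group and 106 in the Klf4-transfected group (log2 fold change 1.88 ± 0.38 SE, adjusted p = 0.00035 in edgeR).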
